A study of Drosophila melanogaster with 6 samples.

Results

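The genes described here encode the light cascade of the fly photoreceptor, the proteins that make and handle the visual pigment, and the proteins that build the eye or set its fate. A list of 45 such genes was matched to the array by gene name, and a gene was kept where at least 1 probe set carried its name and no other. This left 35 genes and 51 probe sets, out of 10844 genes with such a probe set in the whole table. The opsin genes Rh2, Rh3, Rh4, Rh5 and Rh6 and the genes ninaA, ninaD, norpA, ninaC and Gprk1 were not analysed here. CdsA stands in the current gene table as Cds. By role, 18 of the 35 belong to the light cascade, 4 to visual pigment handling and 13 to structure or eye fate.

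Whole fly heads gave the RNA for 6 DrosGenome1 arrays. The 3 wild type arrays were set against 3 from flies with the driver Tim-gal4 and the transgene UAS-MJD, called tim-MJD here. The driver carries the promoter of the clock gene timeless, which is active in clock neurons, glia and photoreceptors, and the transgene is named for Machado-Joseph disease, whose protein ataxin-3 carries a polyglutamine stretch that is toxic to neurons when expanded. The labels of tim-MJD 1 and 2 give a stretch of 78 glutamines and that of tim-MJD 3 gives none, while wild type 1 and 3 are of strain CS and wild type 2 has no strain named. All flies, 2 to 4 days old, had spent 3 days in light-dark cycles and were collected at Zeitgeber time 16, which counts hours from lights on. The sources used here give neither sex nor rearing, nor whether replicates were separate collections, so p-values measure the spread between these samples, which may be technical. Neither a driver-only nor a transgene-only group is among the samples, so driver, transgene and strain cannot be told apart.

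Each group was scanned on a day of its own, and day of scanning and group cannot be told apart. Median intensity per array ran from 26.2 to 31.5, and 40.2% to 44.4% of probe sets exceeded the brightest of 23 negative controls. Wild type 2 stood apart in RNA integrity, with the eIF-4a control 9.45 log2 units brighter at its 3' end than at its 5' end, against 2.67 to 3.71 on the other arrays. The middle 18S ribosomal RNA control was low on wild type 1 (12.49) and wild type 2 (11.79), against 16.67 to 17.56 elsewhere. With 3 arrays per group, the number of arrays limits the precision.

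In a fly photoreceptor, light turns rhodopsin into an active form that switches on a Gq protein and phospholipase C, and the channels TRP and TRPL then open in the rhabdomere, a stack of microvilli that holds the cascade. Arrestins and a calcium-dependent rhodopsin phosphatase, encoded by rdgC, end the response and reset the pigment. The chromophore is made from dietary carotenoids, partly outside the photoreceptors, and pigment and cone cells around the photoreceptors recycle it and secrete the lens.

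The comparison asks which of these transcripts tim-MJD heads held at another level than wild type heads. The phosphatase gene rdgC rose about 3.98-fold in tim-MJD heads and was the 1 member past the test, a call that was lost with any 1 of the 6 arrays left out (adjusted p 0.0608 to 0.116). Retinin, a lens protein gene, read 4.03-fold lower and missed the threshold narrowly. The arrestin and channel genes Arr1, Arr2, trp and trpl had differences between -0.12 and 0.09 log2 units, with overlapping groups. The photoreceptor markers rdgC, Arr1 and trp read above the negative controls on all 6 arrays. In heads as bulk tissue, a change in the number of cells that transcribe a gene and in RNA per cell cannot be told apart. Levels below are log2 of the deposited intensity plus 16 after quantile normalization, differences are tim-MJD minus wild type in log2 units, and called means a Benjamini-Hochberg adjusted p under 0.05 in limma over all 8379 probe sets tested.

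Of the 35 genes, 34 passed the filter on low signal, and ninaG, an oxidoreductase of chromophore synthesis in visual pigment handling, did not (mean level 4.86, above the controls on 0 of 6 arrays). Each gene is given by its brightest probe set. Of the 34, 29 read above the controls on all 6 arrays. The test called 1 of 34 members, or 2.94%, beside 2.47% of all 6873 genes tested, 1.43% higher and 1.05% lower. Over probe sets the calls were 2.48%, with 1.54% higher and 0.943% lower. At an unadjusted p under 0.05 there were 7 members, or 20.6%, beside 15.7% of all genes. These were 3 higher and 4 lower members, beside 7.43% and 8.29% of all genes. The groups did not overlap for 9 members, or 26.5%, beside 21.9% of all genes. In 4 of them all tim-MJD arrays lay above (9.60% of all genes) and in 5 below (12.3%). None of these shares stands far from the background. The median difference over the 34 members was 0.0065 (0.0043 with ninaG), beside -0.0046 over all tested genes. A total of 27 members, or 79.4%, lay within 0.5 of 0, beside 82.1% of all genes.

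**Figure D1:**
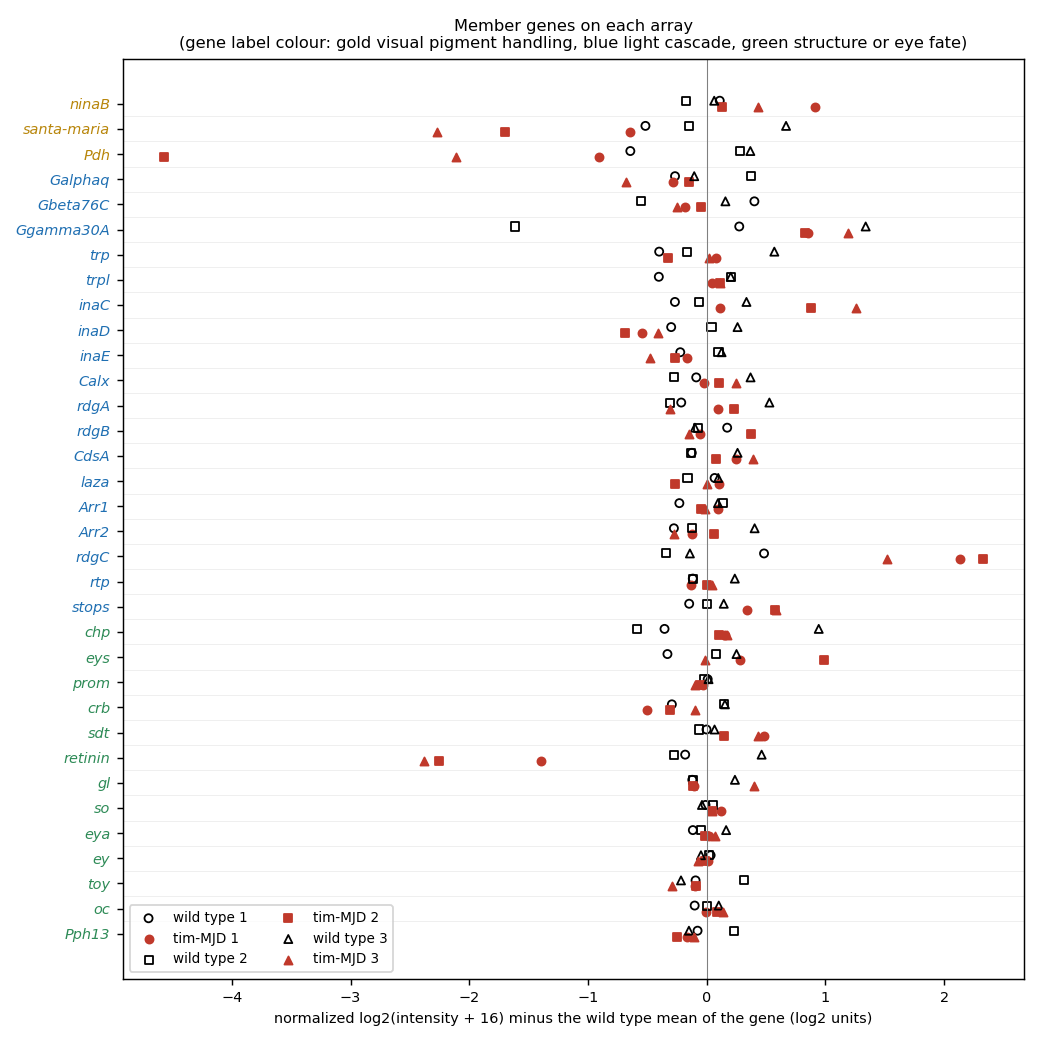
Normalized log2 level of 34 genes on each array (x axis, log2 units) after subtracting the wild type mean of that gene. Open symbols are wild type and filled symbols tim-MJD, with circle, square and triangle for replicates 1, 2 and 3. The filled symbols of rdgC lie to the right of all its open ones, and those of retinin, Pdh and santa-maria to the left.

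The cascade begins with the heterotrimeric Gq protein that active rhodopsin switches on. Its alpha subunit gene Galphaq had mean levels of 6.49 in wild type and 6.12 in tim-MJD, and differed by -0.37 ± 0.22 (SE, adjusted p = 0.521). Gbeta76C, the eye-specific beta subunit, went from a mean of 12.40 to 12.24, a difference of -0.16 ± 0.26 (adjusted p = 0.850). In both genes the groups overlapped. Ggamma30A, the gamma subunit of the eye, read 9.38, 7.49 and 10.44 in wild type and 9.96, 9.94 and 10.30 in tim-MJD. Wild type 2 alone lay far below, and the other 2 wild type arrays spanned the tim-MJD values. The difference of 0.96 ± 0.75 (adjusted p = 0.645) was 0.15 without wild type 2, and it was 2.46 and -0.51 within the fluidics modules that washed 1 array of each group, modules 1 and 2. Wild type 2 is also the array with the large 3' to 5' difference, whose part in this value was not tested. A 3' to 5' covariate brought the Ggamma30A difference to -0.07. That covariate mainly sets wild type 2 apart, so it cannot tell RNA integrity from other traits of that array.

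The light-gated channels had overlapping groups. The gene trp, which encodes the main calcium channel of the light response, read 14.58, 14.81 and 15.55 in wild type and 15.05, 14.65 and 15.00 in tim-MJD. Every tim-MJD value lay inside the wild type range. The difference was -0.08 with a 95% interval from -0.78 to 0.62 (adjusted p = 0.949). Its partner trpl, the second channel subunit, had means of 14.64 and 14.72 and differed by 0.09 (interval -0.37 to 0.54). The sodium-calcium exchanger gene Calx, which clears calcium after the response, had means of 7.76 and 7.87 and differed by 0.11 (interval -0.36 to 0.58). For trp, trpl and Calx the sign of these small differences turned under some alternatives.

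The 2 genes for the protein complex that holds the channels had opposite signs. The scaffold gene inaD, whose protein ties TRP, phospholipase C and a kinase together, read 10.03, 10.37 and 10.59 in wild type and 9.79, 9.64 and 9.92 in tim-MJD. All tim-MJD arrays lay below all wild type arrays, by a margin of 0.11 at the closest. The difference was -0.55 ± 0.16 (adjusted p = 0.187). It was called under 1 of 21 tested alternatives, the values as deposited (-0.72, adjusted p = 0.0432). The kinase gene inaC, which encodes the eye protein kinase C that the scaffold binds, read 7.75, 7.95 and 8.35 in wild type and 8.13, 8.89 and 9.28 in tim-MJD. Only tim-MJD 1 fell within the wild type range. The difference was 0.75 ± 0.33 (adjusted p = 0.370).

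The gene inaE, which encodes the diacylglycerol lipase of the pathway, had 5 probe sets. The brightest, with means of 6.15 and 5.84, differed by -0.30 ± 0.13 and the other that passed the filter by 0.12 ± 0.17, so the tested probe sets disagreed in sign and neither was called. Genes of the phosphoinositide cycle, which rebuilds the substrate of phospholipase C, lay near 0. The diacylglycerol kinase gene rdgA had means of 7.36 and 7.37 and differed by 0.0043 ± 0.27. Its other tested probe set differed by 0.22 ± 0.17 (limma, adjusted p = 0.648). The lipid phosphatase gene laza had means of 6.24 and 6.19 (-0.05 ± 0.13). The gene rdgB, for a lipid transfer protein, had means of 5.76 and 5.81 (0.05 ± 0.16). By the brightest probe set, the differences of rdgA, laza and rdgB are smaller than their standard errors. CdsA, for the CDP-diacylglycerol synthase, had means of 9.61 and 9.85 and differed by 0.24 ± 0.14. Their groups overlapped in all 4 cases, and 0 of the 4 had an unadjusted p under 0.05 in limma.

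Shut-off of the response held the single called member. The gene rdgC read 7.001, 6.18 and 6.38 in wild type and 8.65, 8.85 and 8.03 in tim-MJD. In deposited intensities, before normalization, this was 120, 55.8 and 68.3 against 376, 444 and 205. The lowest tim-MJD array stood 1.03 log2 units above the highest wild type array. The mean went from 6.52 ± 0.43 to 8.51 ± 0.43 (SD, n = 3), a rise of 1.99 ± 0.30 (SE, 95% interval 1.23 to 2.76, adjusted p = 0.0416).

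The rdgC rise kept its direction under all 23 alternatives, and was 2.48 and 2.47 within fluidics modules 1 and 2. Counting the fits with an array left out, its call stood under 6 of 21 tested alternatives, 1 of them the looser threshold of 0.1. How the deposited values were scaled is not settled. Should they be log2 summaries raised as powers of e, the rise in log2 units would be 1.54, its natural log value.

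The arrestins, which bind active rhodopsin and end its signal, showed no such separation. Arr2, the major arrestin of the photoreceptor, read 18.03, 18.18 and 18.71 in wild type and 18.18, 18.36 and 18.03 in tim-MJD. Arr1 read 16.87, 17.24 and 17.19 in wild type and 17.19, 17.05 and 17.08 in tim-MJD. The tim-MJD arrays lay inside the wild type range for both genes. The differences were -0.12 (interval -0.62 to 0.39) for Arr2 and 0.0087 (interval -0.29 to 0.30) for Arr1. Over the alternatives they ran from -0.47 to 0.37 for Arr2 and from -0.14 to 0.20 for Arr1. Both signs thus turned under some alternatives, and neither gene was called under any. In deposited intensities both genes lie above 65535, the limit of a 16-bit scan, and saturation was not tested. The gene rtp, for retinophilin, which binds the NINAC myosin of the rhabdomere, had means of 13.20 and 13.17 and differed by -0.03 (interval -0.34 to 0.27).

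The gene stops, whose product is needed to keep phospholipase C and end the light response on time, read 7.78, 7.93 and 8.07 in wild type and 8.26, 8.50 and 8.51 in tim-MJD. The tim-MJD arrays all lay above the wild type arrays. The difference was 0.50 ± 0.11 (adjusted p = 0.0957). The gene's other tested probe sets had the same sign, with 0.45 ± 0.15 (adjusted p = 0.219) and 0.29 ± 0.14 (adjusted p = 0.447).

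**Figure D2:**
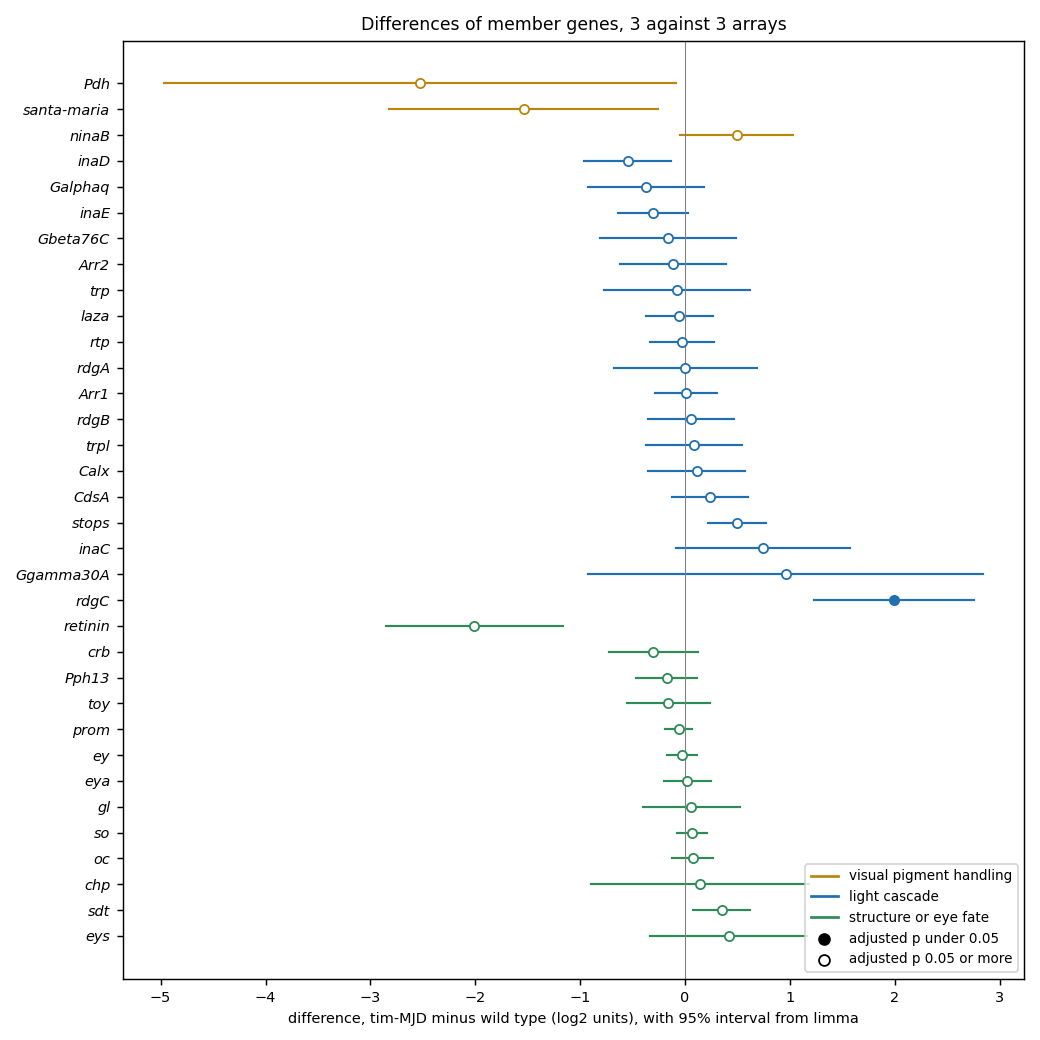
Difference between tim-MJD and wild type (x axis, log2 units) for 34 genes, with the 95% interval from limma as a line and colour by role. The filled point, rdgC at 1.99, is the 1 call. The widest intervals belong to Pdh (-4.97 to -0.09) and Ggamma30A (-0.93 to 2.85).

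Visual pigment handling was measured by 3 genes that passed the filter, and 0 of the 3 were called. All tim-MJD arrays lay below all wild type arrays for 2 of the 3, beside 12.3% of all genes tested, and 3 genes are too few to read that as a result about the class. Pdh encodes a dehydrogenase of retinal pigment cells that takes part in recycling the chromophore. It read 14.55, 15.47 and 15.56 in wild type and 14.29, 10.62 and 13.08 in tim-MJD. The tim-MJD arrays spread widely, with tim-MJD 1 only 0.26 below wild type 1 and tim-MJD 2 far below the rest. The difference was -2.53 ± 0.97 (adjusted p = 0.304), -1.50 without tim-MJD 2, and -1.18 and -4.94 within fluidics modules 1 and 2. A further probe set that also carries another gene's name was not used.

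The gene santa-maria encodes a scavenger receptor that takes up carotenoids in cells of the brain outside the retina. It read 9.41, 9.78 and 10.60 in wild type and 9.29, 8.23 and 7.66 in tim-MJD. All tim-MJD arrays lay below wild type, tim-MJD 1 again the closest. The difference was -1.54 ± 0.51 (adjusted p = 0.227), and -0.49 and -2.37 within modules 1 and 2. The enzyme that cleaves the carotenoid is encoded by ninaB, with means of 7.16 and 7.65, which differed by 0.49 ± 0.22 (adjusted p = 0.365), with all tim-MJD arrays above all wild type arrays. It was 1.09 and 0.07 within modules 1 and 2.

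Retinin, a protein of the corneal lens surface, was measured among the structure genes. Its gene read 15.48, 15.39 and 16.13 in wild type and 14.27, 13.41 and 13.29 in tim-MJD. In deposited intensities this was 53865, 45253 and 57073 against 19261, 10525 and 9135. The highest tim-MJD array stood 1.12 log2 units below the lowest wild type array. The difference was -2.01 ± 0.34 (SE, 95% interval -2.86 to -1.17, adjusted p = 0.0536), -1.40 on the natural log scale, and -1.12 and -2.72 within modules 1 and 2. It was called under 8 of 21 tested alternatives, among them the looser threshold of 0.1, cyclic loess (adjusted p = 0.0400), the values as deposited (0.0233) and leaving out tim-MJD 1 (0.0305). The other alternatives gave adjusted p up to 0.452.

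Markers of other cell types gave 2 calls, 1 in the fat body list and 1 in the olfactory list. The mean log2 level of 9 fat body markers was 15.31, 14.70 and 14.46 in wild type and 13.91, 10.52 and 13.59 in tim-MJD and was lowest on tim-MJD 2. Pdh was also lowest on tim-MJD 2, while santa-maria and retinin were lowest on tim-MJD 3. Of the 9 markers 1, Obp99b, fell (-5.70 ± 0.91, adjusted p = 0.0478) and 8 were not called, with Fbp1 at control level on all arrays. Counting Obp99b, 3 of the 9 had an unadjusted p under 0.05 in limma, and 2 had a positive difference. The median difference of -2.06 is that of the yolk protein gene Yp1, whose groups overlapped. Yp1 read 20.5, 20.5 and 20.1 in wild type and 20.1, 14.72 and 20.1 in tim-MJD. Yp2 (10.02) and Yp3 (13.15) were also far lowest on tim-MJD 2, so the median does not describe all tim-MJD arrays. The mean of 9 glial markers ran from 7.38 to 7.66 in wild type and from 7.09 to 7.19 in tim-MJD. Of the glial markers 0 were called in limma, 3 had an unadjusted p under 0.05 and the median difference was -0.40. Their signs were mixed, with 2 positive, moody (0.50) and loco (0.51), and Gs2 (-1.42) the lowest. The glial mean thus does not stand for every marker. The mean of 9 olfactory organ markers ran from 10.30 to 10.54 and from 8.78 to 9.43, with 1 lower call, Obp19a (-4.55 ± 0.24, adjusted p = 0.00195). Of these 9, 5 had an unadjusted p under 0.05 and 0 a positive difference, with a median of -1.15. Most of them are odorant binding protein genes. Orco (-0.03), Obp84a (-0.16) and Obp57c (-0.20) lay near 0 with overlapping groups, so the median does not describe the olfactory list as a whole. Obp19a read 5.69, 5.12 and 5.33 in tim-MJD and was above the controls on 4 of 6 arrays, so low signal limits the size of its fall. The part of these cell types in the values of Pdh, santa-maria and retinin was not tested. Lens and pigment cell markers had means of 6.71 to 6.99 and 6.78 to 6.89 over 5 genes, st and cn at control level, and 0 of 3 tested were called (0 at an unadjusted p under 0.05). The 8 pan-neuronal markers had means of 7.13 to 7.29 in wild type and 7.32 to 7.45 in tim-MJD, with 0 of 7 tested called and 3 at an unadjusted p under 0.05. Of the 7, 5 had a positive difference, with a median of 0.07. The largest was nSyb (1.63 ± 0.29), while Csp (-0.53) and unc-13 (-0.62) were lower, so the mean does not describe the list as a whole. Of 9 hemocyte markers 0 were called (1 at an unadjusted p under 0.05, median -0.07), and of 7 muscle markers 0 (0 at an unadjusted p under 0.05, median 0.0030).

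**Figure D3:**
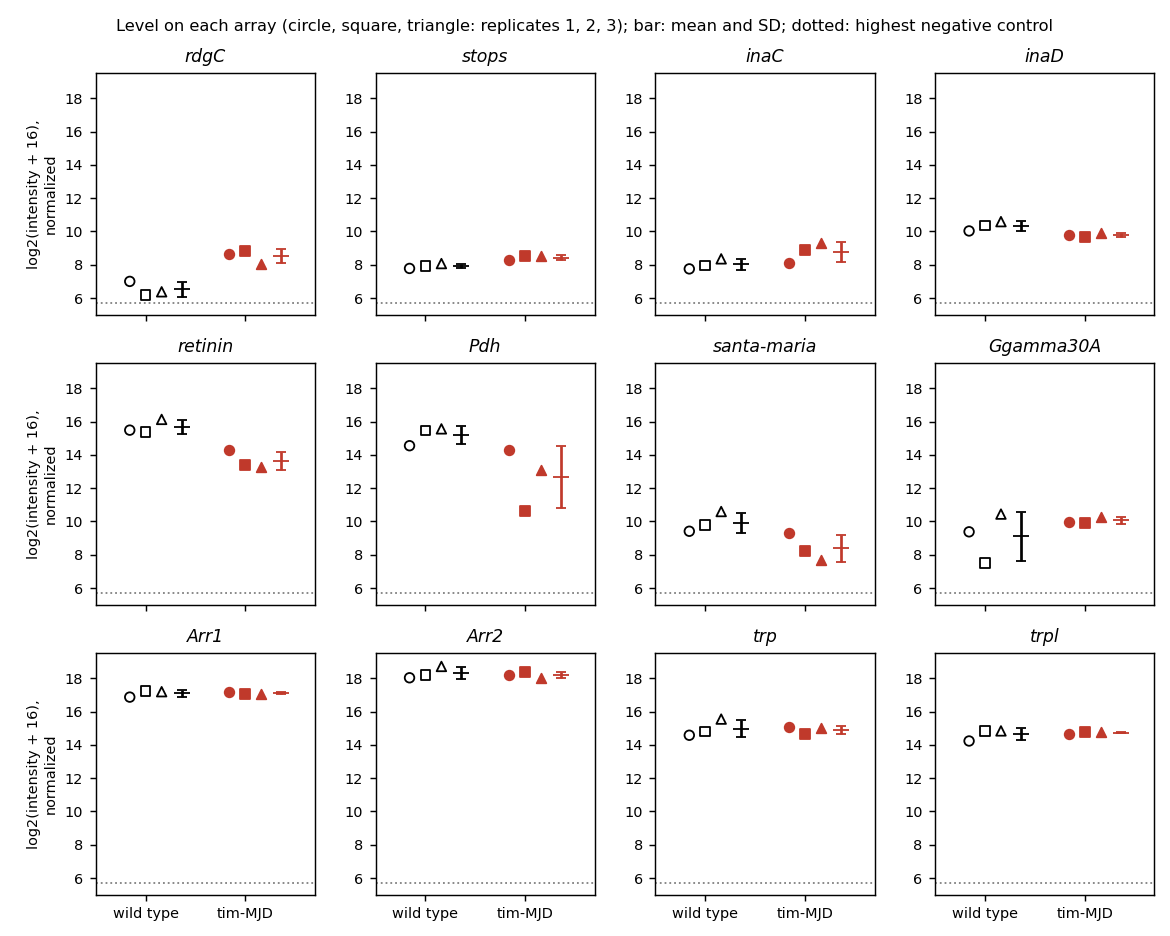
Normalized log2(intensity + 16) of 12 genes on each array (y axis), with group mean and SD (n = 3) beside the points and the highest negative control level, 5.69, as a dotted line. Groups separate for rdgC, stops, inaD, retinin, Pdh and santa-maria, and overlap for Arr1, Arr2, trp and trpl.

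Of the genes that build the photoreceptor, the cell adhesion gene chp, for chaoptin of the rhabdomere membrane, read 12.34, 12.11 and 13.64 in wild type and 12.85, 12.80 and 12.87 in tim-MJD. The tim-MJD arrays lay close together inside the wide wild type range, and the difference was 0.14 ± 0.41 (adjusted p = 0.933). Wild type 3 alone lay above the tim-MJD arrays. In limma the chp difference was 0.60 without wild type 3 (adjusted p = 0.0701) and -0.80 with the 18S covariate (adjusted p = 0.109). The gene eys, for the secreted protein that opens the space between rhabdomeres, had means of 6.30 and 6.72 and differed by 0.42 ± 0.30. Both chp and eys had overlapping groups. Of the polarity genes, crb, for the apical membrane protein Crumbs, had means of 6.44 and 6.13 and differed by -0.30 ± 0.17. Its partner gene sdt differed by 0.35 ± 0.11 (adjusted p = 0.195), from 5.69 to 5.82 in wild type and from 5.89 to 6.23 in tim-MJD without overlap. Of the 7 probe sets of sdt, 6 lay below the filter. The gene prom, for a prominin of the rhabdomere membrane, was at control level on all 6 arrays (means 5.51 and 5.45, no overlap), where a difference was not detectable.

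The transcription factors that found the eye or keep photoreceptor identity had differences between -0.18 and 0.07. These 7 genes, gl, so, eya, ey, toy, oc and Pph13, all had overlapping groups, and 0 of 7 had an unadjusted p under 0.05 in limma. Largest in size among these 7 was Pph13, for a homeodomain factor of opsin transcription, with means of 6.07 and 5.90 and a difference of -0.18 (interval -0.47 to 0.11). The zinc finger gene gl, needed for photoreceptor fate, had means of 6.29 and 6.35 and differed by 0.06 (interval -0.40 to 0.52), and oc, the homeodomain gene also called orthodenticle, with means of 6.02 and 6.09, by 0.07 (interval -0.13 to 0.27). The Pax6 gene toy had means of 6.86 and 6.70, and eya, a phosphatase and coactivator, 6.47 and 6.49. The other Pax6 gene, ey, was at control level on all arrays (5.36 and 5.33) and so was above it on 1 of 6 (5.55 and 5.62), and neither gave a detectable difference.

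By role, the median difference was 0.0065 over 18 light cascade genes, -1.54 over the 3 tested visual pigment handling genes (-0.78 with ninaG) and 0.02 over 13 structure or eye fate genes. Calls numbered 1, 0 and 0, and members at an unadjusted p under 0.05 numbered 3, 2 and 2. A difference between the roles was not tested.

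**Figure D4:**
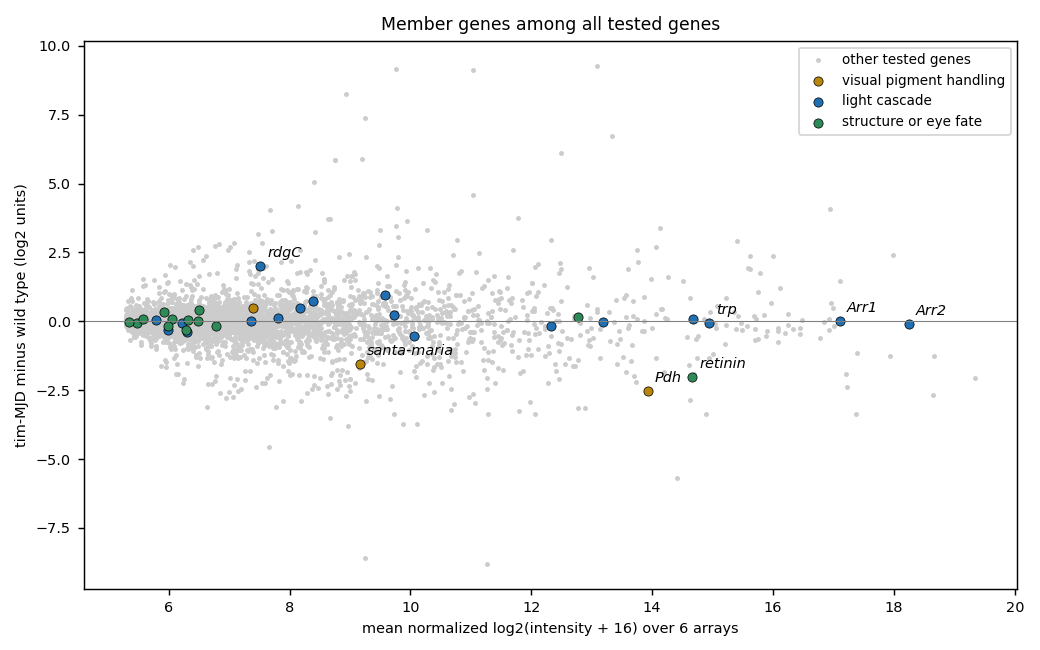
Difference between tim-MJD and wild type (y axis, log2 units) against mean normalized level over 6 arrays (x axis) for all 6873 tested genes, with the 34 members in colour. Most members lie near 0, while rdgC (1.99), retinin (-2.01), Pdh (-2.53) and santa-maria (-1.54) lie away from it, where other genes also lie.

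Other genes of the same pathways gave no call in limma. Of 12 tested genes of the light cascade and pigment outside the members, 0 were called, 1 had an unadjusted p under 0.05 and the median difference was 0.0075. Of 7 genes for histamine, the photoreceptor transmitter, 0 were called, 1 had an unadjusted p under 0.05 and the median was 0.0011. Of 5 tested partners of the rhabdomere and junctions 0 were called (1 at an unadjusted p under 0.05, median 0.02), and of 7 tested eye development regulators 0 (0 at an unadjusted p under 0.05, median -0.02). The rhodopsin 1 gene ninaE was not analysed here.

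**Figure D5:**
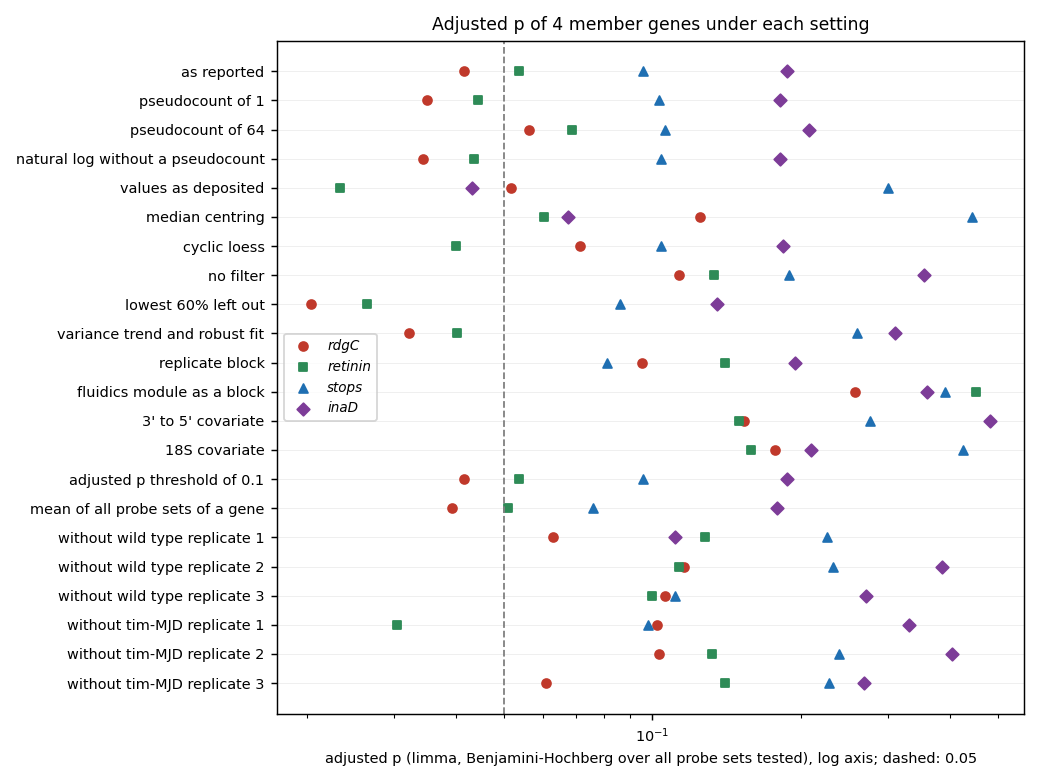
Adjusted p (x axis, log scale, dashed line at 0.05) of rdgC, retinin, stops and inaD as reported and under 21 alternatives (y axis). The setting with a threshold of 0.1 repeats the reported p. The points of rdgC run from 0.0204 to 0.257 and those of retinin from 0.0233 to 0.452, on both sides of the line.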

How the data were processed

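RNA of heads was measured on DrosGenome1 arrays, per the labels and the file headers. The authors deposited 1 linear intensity for each probe set and array. Its summary, background correction and normalization, and a genome build, are not stated in the labels or headers, so no coordinates are given. Between 56 and 75 probe sets per array exceed 65535. Fluidics module and scan day came from the array description files.

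The 14010 probe sets include 44 array controls, which were left out. Gene names came from the platform annotation, updated by gene identifier: 12443 probe sets had 1 gene and 327 several. Log2 of intensity plus 16 was quantile normalized, and controls were placed on that scale by interpolation. The lowest 40% by mean were left out, which kept 8379. Groups were compared with limma 3.58.1 in R 4.3.3 (lmFit and eBayes, two-sided, Benjamini-Hochberg over all probe sets tested, threshold 0.05), since 3 against 3 arrays cannot reach an exact permutation p below 0.1. A gene stands as its brightest probe set, and a probe set counts as above the controls where it exceeds the highest of 23 negative controls of that array.

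Named are all members, of the other lists up to 3 genes past the threshold, and some further list genes given for their levels. Members, lists, tests and alternatives were chosen with earlier results of these data known. In simulated data of this comparison, with 8379 probe sets, 42%, 62%, 88% and 98% of 50 probe sets each were recovered at changes of 0.5, 1, 2 and 4 log2 units, and 6.45% of 155 calls fell on unchanged probe sets. The changed probe sets were drawn from all tested, also those near control level with little spread. The simulated noise was independent between probe sets, without effects shared within an array. These shares therefore need not hold for members of wide spread. Alternatives were pseudocounts of 1 and 64, natural log, values as deposited, cyclic loess, median centring, a filter of 60% or none, a variance trend, replicate number and module as blocks, 3' to 5' and 18S covariates, a threshold of 0.1, the mean of a gene's probe sets, and leaving out each array. Scan day could not be fitted. Figures were drawn with matplotlib 3.10.9 and pandas 2.3.3 in Python 3.11.15.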

Additional observations from a re-analysis of the deposited data

How the results depend on the processing

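Calls over all probe sets numbered 208 (129 higher, 79 lower) and kept within 1.5 times of that except with median centring (122), no filter (102), 60% left out (387), the replicate block (84), the module block (0, with 980 at an unadjusted p under 0.05), the 3' to 5' covariate (94), the 18S covariate (42), a threshold of 0.1 (500) and arrays left out (88 to 200). With the values as deposited the split was 123 higher and 144 lower. Called members numbered 1, rdgC. They numbered 2 with a pseudocount of 1, the natural log, 60% left out and the variance trend, where retinin joined rdgC. With the values as deposited they also numbered 2, retinin and inaD, without rdgC. With a threshold of 0.1 they numbered 3. They numbered 0 with a pseudocount of 64, median centring, no filter, the replicate block, the module block, either covariate and 5 of 6 arrays left out (0 to 1; the 1 is retinin, without tim-MJD 1), with 4 to 9 at an unadjusted p under 0.05. With cyclic loess the 1 called was retinin.

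The members' median (0.0065) ran from -0.03 to 0.09 with arrays left out. It was -0.15 with the 18S covariate and -0.18 within module 2, and the cause was not tested. No called value changed sign. Members that were not called changed sign in 84 of 779 values over the alternatives, and 16 of 34 members never did. Same-numbered arrays correlated at 0.286, 0.0498 and 0.300 in their deviations from the group means, and other pairs at -0.314 to 0.112. Each tim-MJD array correlated best with the wild type array of its own number, while wild type 2 correlated better with tim-MJD 1 (0.112). Whether the numbers mark pairs was not settled, and the main fit did not take them as pairs. With the replicate block the rise of rdgC was 1.99 (adjusted p = 0.0952). Low signal limits prom, so and ey most.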

Other observations

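Outside the members, 6 genes of the related cascade, histamine, rhabdomere and pan-neuronal lists had groups that did not overlap and missed the threshold. These lists held 12, 7, 5 and 7 tested genes, and the groups did not overlap for 21.9% of all tested genes. The count is therefore not read as a result about these lists. The 6 genes were chosen after their values were seen, and the differences are in log2 units as above. The phosphatidylinositol phosphate kinase gene PIP5K59B differed by -1.03 ± 0.25 (adjusted p = 0.112), and Pis, for the phosphatidylinositol synthase, by 1.18 ± 0.65 (adjusted p = 0.485). Pis read 10.27, 8.02 and 10.17 in wild type and 10.7, 10.96 and 10.36 in tim-MJD, with wild type 2 alone far below. Amph, for the membrane-shaping protein amphiphysin, differed by -0.88 ± 0.16 (adjusted p = 0.0673). Balat, for a transporter of the histamine pathway, differed by -0.44 ± 0.13 (adjusted p = 0.164) and read above the controls on 2 of 6 arrays. The synaptic vesicle genes nSyb and Csp differed by 1.63 ± 0.29 (adjusted p = 0.0579) and -0.53 ± 0.21 (adjusted p = 0.317). The signs were mixed, with 2 higher and 4 lower.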
